A study of Rattus norvegicus with 15 samples.

Results

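The genes described here encode the subunits of the mitochondrial respiratory chain and of ATP synthase, together with cytochrome c. They were chosen by name: every array probe whose gene name in the deposited files starts with Nduf (but not Ndufaf), Uqcr, Cox4, Cox5, Cox6, Cox7, Cox8 or Atp5, or equals Sdha, Sdhb, Sdhc, Sdhd, Cyc1 or Cycs. The rule itself uses names and no measured value, but it was proposed with earlier results of these data known. The rule found 115 of the 45598 probes, which stand for 85 of the 36181 genes or gene names on the array, and 79 of these genes were bright enough to be tested, out of 17055 tested features in all. All 79 were well above background on each of the 15 arrays. By role the tested genes comprised 32 of complex I, 4 of complex II, 9 of complex III, 13 of complex IV, 15 of ATP synthase and cytochrome c, and 5 whose names fit the rule but which are not subunits or are unsure.

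The samples were hepatocytes of female Wistar rats whose DNA had been stained with Hoechst33342 and which were then sorted by ploidy into fractions of diploid (2c), tetraploid (4c) and octoploid (8c) DNA amount. In all, 5 arrays were hybridised for each DNA content, 1 from each of 5 independent experiments. The rats were 12, 14, 6, 5 and 6 weeks old in experiments 1 to 5. All animals were untreated as far as the labels say, and neither the number of animals per experiment nor the sort gates are given in the sources used here. A sort by total DNA cannot tell a cell with a single nucleus from a binucleate cell of the same DNA content, or a 4c cell from a 2c cell that has replicated its DNA.

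The respiratory chain passes electrons from NADH (complex I) and succinate (complex II) through complex III and cytochrome c to oxygen at complex IV, and ATP synthase, also called complex V, uses the proton gradient that results. Most of the complexes have accessory subunits beside the catalytic ones. The nuclear genome encodes most of the subunits, but not all of the catalytic ones. Hepatocytes are rich in mitochondria, and in the liver lobule the periportal cells are known for the more oxidative metabolism. Subunits that the mitochondrial genome encodes were looked for under 39 names and none of the names was matched, so every gene below is nuclear.

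Levels are given on a log2 scale on which 0 is the 75th percentile of the array, computed from those 16211 probes whose signal exceeded background on every array. They describe a transcript's share of the RNA hybridised and not its amount per cell. In such bulk samples fewer cells of a type and less RNA per cell cannot be told apart. Differences between DNA contents were fitted with limma, with the experiment as a block, and passing means a Benjamini-Hochberg adjusted p below 0.05, with the adjustment made over all 17055 features.

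The nuclear genes of the chain are known to be served by a few transcription factors, among them NRF1, the ETS factor GABP and YY1. Promoter windows of 300 bases (250 before and 50 after the start, RefSeq, build GRCr8) were found for 72 of the 85 genes. On either strand, the NRF1 core motif (in capitals in Ndufs6 and Atp5mc2 below) stood in 14 of these windows, or 19.4%, against 4.25% of all 33469 windows of the same length. CGGAAGT (an ETS core) stood in 15 windows, or 20.8%, against 6.32%, and AAGATGGCG (a YY1 core) in 10, or 13.9%, against 1.73%. At least 1 of the 3 motifs was found in 34 windows, or 47.2%, against 11.2% of all windows. The letters of the 3 motifs do not contain one another. The sequences below are the last 120 bases before the start for 6 genes that lie among the 6 smallest p values of a comparison described further on and have a motif in that stretch. They run 5′ to 3′ in the direction of the gene, with the motif letters in capitals.
Uqcrq: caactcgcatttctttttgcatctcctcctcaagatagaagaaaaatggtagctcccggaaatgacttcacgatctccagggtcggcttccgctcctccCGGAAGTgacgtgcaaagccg
Ndufb7: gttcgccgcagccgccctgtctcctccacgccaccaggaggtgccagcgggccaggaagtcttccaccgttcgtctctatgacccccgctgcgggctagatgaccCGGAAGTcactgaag
Sdhc: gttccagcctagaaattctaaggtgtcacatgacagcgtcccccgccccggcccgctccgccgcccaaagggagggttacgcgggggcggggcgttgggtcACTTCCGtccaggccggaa
Ndufs6: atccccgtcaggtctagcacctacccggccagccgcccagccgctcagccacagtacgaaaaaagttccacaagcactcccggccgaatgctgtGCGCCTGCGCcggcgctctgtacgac
Cox5b: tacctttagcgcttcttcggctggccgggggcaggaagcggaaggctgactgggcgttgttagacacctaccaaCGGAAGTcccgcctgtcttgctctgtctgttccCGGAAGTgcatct
Atp5mc2: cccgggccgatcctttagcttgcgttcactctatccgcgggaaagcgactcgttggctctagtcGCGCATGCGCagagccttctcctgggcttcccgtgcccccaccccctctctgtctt
The 6 stretches lie in GRCr8 at chr10:38089979-38090098 (minus strand), chr19:41477292-41477411 (minus), chr13:86098026-86098145 (minus), chr1:31797280-31797399 (plus), chr9:46417717-46417836 (plus) and chr7:135678219-135678338 (minus), in the order printed. Uqcrq, Ndufb7 and Sdhc hold 1 ETS core each, on the reverse strand in Sdhc, and Cox5b holds 2. Ndufs6 and Atp5mc2 each hold an NRF1 core. Among tested genes with a window, the 33 with any of the 3 motifs had a median 8c minus 2c difference of 0.13 and the 33 with none had 0.09, both on the log2 scale. A match of letters is a description of the sequence and no evidence of binding.

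The arrays themselves differed in ways that touch some results. The 5 experiments were spread over 2 slides, 8 arrays on slide 1 (all of experiments 1 and 2, and 2c and 4c of experiment 3) and 7 on slide 2 (8c of experiment 3, and all of experiments 4 and 5). On 6 arrays (2c and 8c of experiment 1, all 3 of experiment 2, and 8c of experiment 3) the median over 26 pancreatic acinar genes lay between -1.23 and 4.57, while it was at most -7.20 on the others. The 9 hepatocyte markers were detected throughout, with array medians from 6.40 to 6.89. Markers of other liver cells were highest in the 2c arrays. The median over 10 Kupffer cell markers ran from -5.06 to -1.32 in 2c, from -7.52 to -5.22 in 4c and from -8.07 to -5.38 in 8c, and 1 of the 10 was at background on every array. Summed over the list the Kupffer signal ran from -0.39 to 3.90 in 2c and from -3.05 to -0.84 in 8c. Stellate and sinusoidal endothelial markers had 2c medians of -4.85 to -1.95 and -5.21 to -3.28, and 8c medians of -8.01 to -4.85 and -7.62 to -5.59. Between 8c and 2c, 7 of 8 tested Kupffer, 6 of 7 stellate and 4 of 7 endothelial markers passed as lower in 8c, and none passed as higher. The part of these markers in the differences below was not tested.

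Between 8c and 2c hepatocytes, respiratory chain and ATP synthase transcripts differed little. None of the 79 genes passed, while 2.37% of all tested features did (0.809% higher and 1.56% lower in 8c), and the smallest adjusted p was 0.102 (limma, Ndufb8). The median difference was 0.11 on the log2 scale, or 1.08-fold higher in 8c, and 64 of the 79 estimates were above 0. Over all tested features the median was -0.02, and 44.7% of the estimates were above 0. The median of the 79 genes was above 0 in each experiment, at 0.08, 0.15, 0.06, 0.21 and 0.05 in experiments 1 to 5. It stayed above 0 in each of the 19 alternative settings tried, the scalings included, from 0.07 without the 6 arrays with acinar transcripts to 0.19 with the percentile taken over all probes. The median of all features moved with the scaling: it was 0.06 in that last setting, and 0.03 with quantile normalization, where the 79 genes had 0.07. At an unadjusted p under 0.05, 19 genes were higher in 8c, where 6.37% of all features were, and 1 (Cox8b) was lower, where 8.59% were. In 29 genes the 8c array was higher than the 2c array in 5 of 5 experiments, against 7.19% of all features, and in none was it lower in all 5, where 8.07% of features were. The 95% interval of the difference lay within 1.5-fold either way for 75 of the 79 genes. The 4 outside were Cox6b2, Cox6c-ps1, Cox7c and Cox8b.

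**Figure D1:**
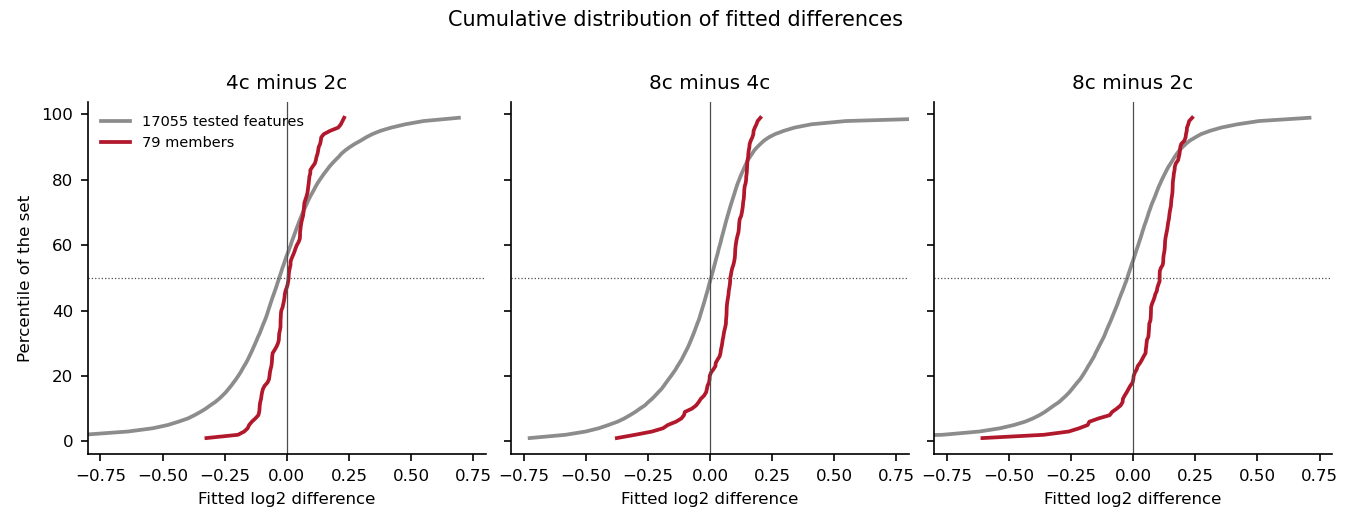
Cumulative distributions of the fitted log2 differences (horizontal axis) over the 79 members (red) and the 17055 tested features (grey), given as percentiles 1 to 99, for 4c minus 2c, 8c minus 4c and 8c minus 2c. The red curve crosses the 50th percentile at 0.01, 0.08 and 0.11 and spans a narrower range than the grey one in each panel.

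**Figure D2:**
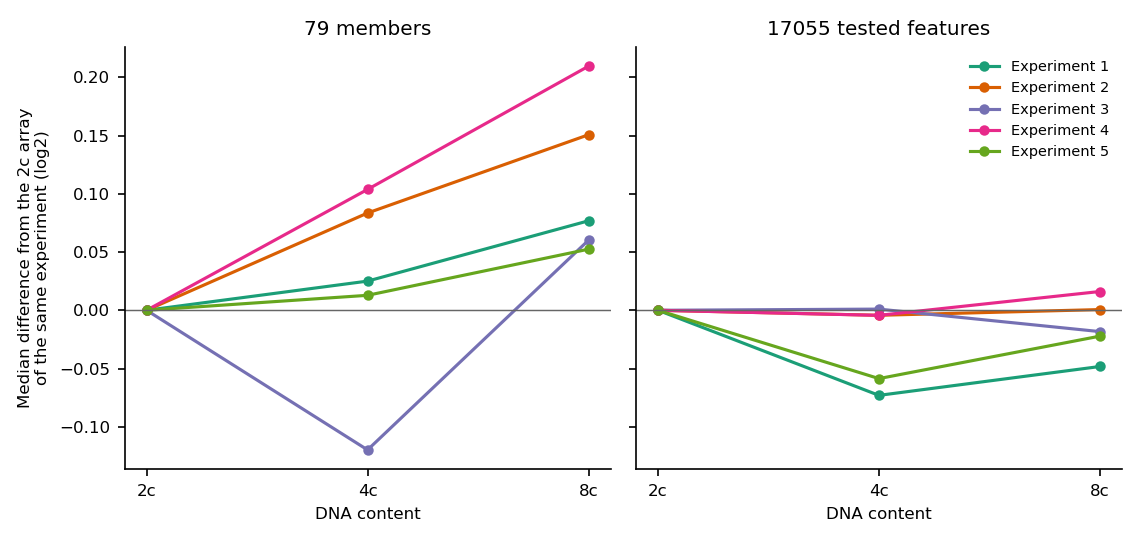
Median difference from the 2c array of the same experiment (log2, vertical axis) at each DNA content, 1 line per experiment, over the 79 members (left) and all tested features (right). In the members every 8c point lies above 0, from 0.05 to 0.21, and the 4c point of experiment 3 lies at -0.12.

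Within complex I, the entry point for electrons from NADH, the 7 tested core subunits and the 25 accessory subunits had medians of 0.05 and 0.14 for 8c minus 2c. This grouping by role was made after the values were seen and was not tested. Of the accessory subunits 24 of 25 were above 0 and 16 were higher in 8c in all 5 experiments. Of the core subunits 6 of 7 were above 0 and 2 were higher in all 5. Ndufb8, an accessory subunit of the membrane arm, had levels of 4.59, 4.74, 4.67, 4.81 and 4.83 in 2c, of 4.62, 4.87, 4.64, 4.96 and 4.81 in 4c, and of 4.75, 4.92, 4.91, 5.09 and 5.05 in 8c, in the order of the experiments. The 8c array was the highest of its experiment in all 5, although the ranges of the groups overlapped. The difference was 0.22 with a standard error of 0.06 (adjusted p = 0.102, limma). Its probe lies at chr1:249597409-249597468 on the minus strand of rn4, the build the files use, and what part of the gene that is was not looked up.

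Ndufb7, also of the membrane arm, was measured at 2.35, 2.60, 2.51, 2.78 and 2.82 in 2c, at 2.66, 2.77, 2.89, 2.96 and 2.93 in 4c and at 2.71, 2.88, 2.83, 2.87 and 2.89 in 8c. Both the 4c and the 8c array were above the 2c array in every experiment, and the 4c and 8c levels overlapped. The differences were 0.23 for 4c minus 2c and 0.22 for 8c minus 2c, each with a standard error of 0.07 (adjusted p = 0.138 and 0.139, limma). Ndufa1, a small accessory subunit whose gene is X-linked, had the largest 8c minus 2c estimate of the 79 genes. Its levels were 3.08, 3.49, 3.27, 3.05 and 3.18 in 2c, 3.43, 3.51, 3.02, 3.30 and 3.44 in 4c and 3.45, 3.69, 3.41, 3.42 and 3.48 in 8c. The 2c value of experiment 2 lay above the 8c value of every other experiment, and within each experiment 8c was the higher, by 0.27 with a standard error of 0.09 (adjusted p = 0.154, limma). Ndufb4 ran from 3.84 to 4.07 in 2c, from 3.69 to 4.22 in 4c and from 4.02 to 4.25 in 8c, with a difference of 0.23 between 8c and 2c (SE 0.07, adjusted p = 0.160, limma). Ndufab1, the mitochondrial acyl carrier protein, was the single member in which no 8c level (2.39 or more) overlapped any 2c level (2.37 or less). Its difference was 0.14, with a standard error of 0.07 (adjusted p = 0.411, limma). Over all tested features, every 8c level lay above every 2c level in 81 of 17055.

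The catalytic core of complex I carries the flavin and the iron-sulfur clusters. Ndufv1, which binds NADH, had levels of 3.15, 3.11, 3.12, 3.35 and 3.40 in 2c, of 2.98, 3.26, 3.28, 3.39 and 3.48 in 4c and of 3.01, 3.21, 3.43, 3.42 and 3.38 in 8c. The order of 2c and 8c turned between experiments, and the difference was 0.06, with a 95% interval from -0.10 to 0.23. Ndufs1, the largest iron-sulfur subunit, gave 1.28, 0.89, 1.14, 1.11 and 1.27 in 2c, 0.85, 0.83, 0.79, 1.17 and 1.16 in 4c and 0.87, 0.80, 0.98, 1.33 and 1.28 in 8c, and its interval for 8c minus 2c was -0.28 to 0.11. The intervals of both subunits lay within 1.5-fold in either direction. Ndufa10 was the accessory subunit with the lowest estimate, -0.22 (SE 0.11, adjusted p = 0.403, limma), from a dim probe whose levels lay between -5.65 and -5.00. In rn4 this probe lies between the 2 probes of Ndufa10l1, on the same strand of chromosome 9. The mean levels of those 2 probes were 2.92 and 1.16. Which transcripts the probes read was not tested.

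Complex II, succinate dehydrogenase, is the only complex of the chain that is wholly nuclear encoded. None of its 4 genes passed in any comparison. Sdha, the flavoprotein, had 2.53, 2.58, 2.68, 2.62 and 2.70 in 2c, 2.47, 2.60, 2.54, 2.60 and 2.77 in 4c and 2.47, 2.68, 2.57, 2.62 and 2.75 in 8c. Its 8c minus 2c estimate was -0.002, with an interval from -0.13 to 0.13, and the ranges of the 3 groups overlapped. Sdhc, a membrane anchor, had 0.78, 0.71, 0.56, 0.67 and 0.53 in 2c, 1.06, 0.96, 0.71, 0.78 and 0.93 in 4c and 0.97, 0.87, 0.74, 0.71 and 0.64 in 8c. The 4c array was above the 2c array in all 5 experiments and the 8c array in all 5, by 0.24 (SE 0.06, adjusted p = 0.116, limma) and 0.14 (adjusted p = 0.360). Sdhd, the other anchor, was also higher in 4c and in 8c than in 2c in all 5 experiments, by 0.11 and 0.09 (adjusted p = 0.341 and 0.482, limma). Sdhb, the iron-sulfur subunit, was higher in 4 of 5 in both comparisons.

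In complex III, which passes electrons from ubiquinol to cytochrome c, the 4 core subunits had a median 8c minus 2c difference of 0.02 and the 5 small subunits one of 0.18. Cyc1, the cytochrome c1 subunit, stood out among the core subunits. Its levels were 3.88, 3.70, 3.70, 3.92 and 4.02 in 2c, 3.86, 3.89, 3.76, 4.06 and 4.12 in 4c and 3.96, 3.88, 4.01, 4.20 and 4.23 in 8c, so that the groups overlapped while 8c was above 2c in every experiment. The difference was 0.21 (SE 0.06, adjusted p = 0.127, limma), and its 2 probes gave the same estimate to 2 decimals. Uqcrc1, the first core protein, and Uqcrfs1, the Rieske iron-sulfur protein, had intervals of -0.28 to 0.16 and -0.16 to 0.26. Uqcrq, a small ubiquinone-binding subunit, had 5.54, 5.81, 5.66, 5.83 and 5.90 in 2c, 5.67, 5.97, 5.68, 5.87 and 5.87 in 4c and 5.70, 6.13, 6.00, 6.05 and 5.96 in 8c. Here too 8c was above 2c in all 5 experiments while the groups overlapped, with a difference of 0.22 (SE 0.06, adjusted p = 0.140, limma). A second, dimmer Uqcrq probe gave -0.28. Cycs, cytochrome c itself, had 2.65, 2.32, 2.44, 2.35 and 2.48 in 2c, 2.43, 2.31, 2.14, 2.37 and 2.44 in 4c and 2.47, 2.21, 2.38, 2.53 and 2.43 in 8c, and its estimate was -0.04 with an interval from -0.20 to 0.12.

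**Figure D3:**
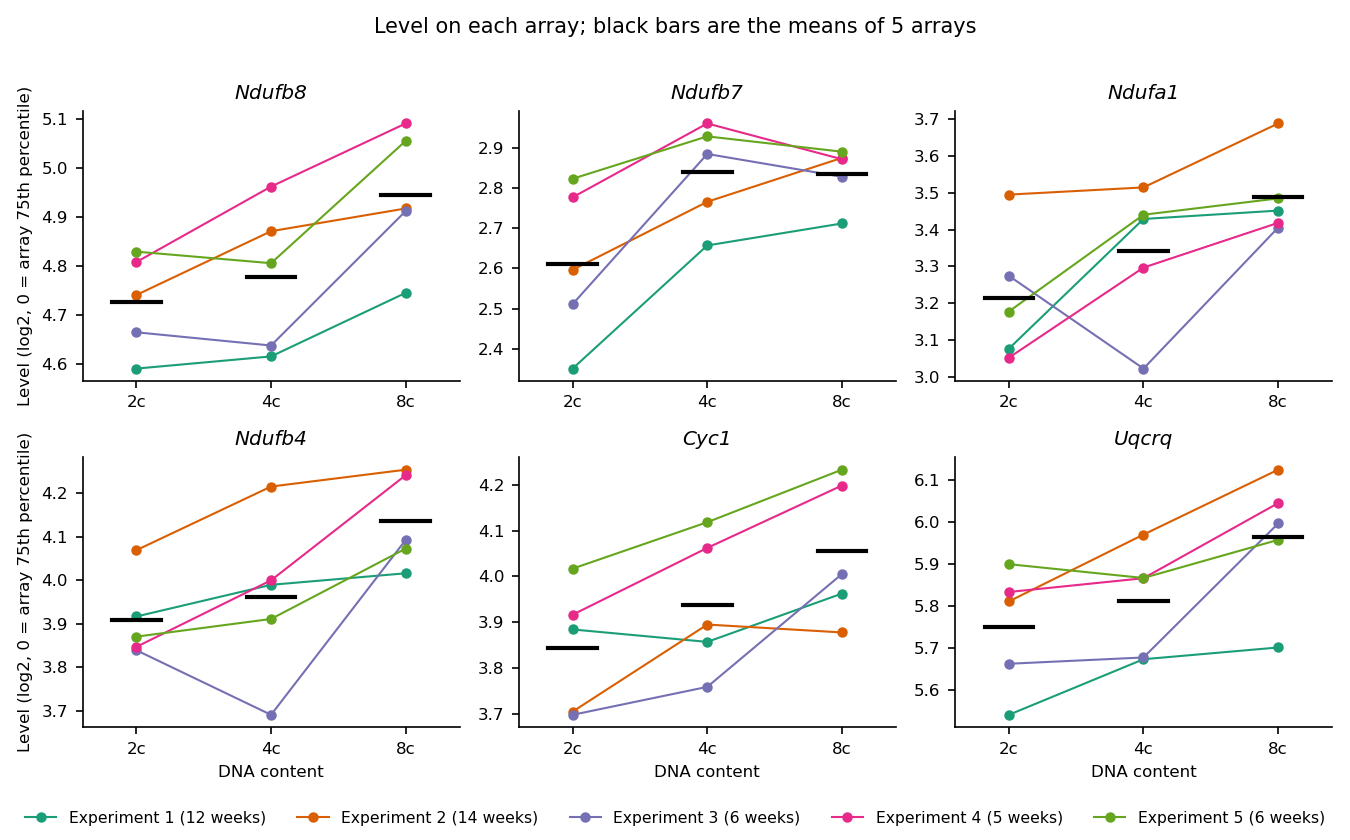
Level of 6 genes on each array (log2, vertical axis; 0 is the array's 75th percentile) by DNA content, with 1 coloured line per experiment and black bars at the means of the 5 arrays. In all 6 genes the 8c point lies above the 2c point of the same experiment in 5 of 5 experiments, while the lines are spread over a range as wide as the step between the means.

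Complex IV, cytochrome c oxidase, has several subunits with 1 form in most tissues and another in muscle, lung or testis. The 10 general forms had a median 8c minus 2c difference of 0.11, with 9 of 10 above 0. Cox4i1, the general form of subunit 4, had 4.78, 5.08, 5.14, 5.16 and 5.34 in 2c, 5.01, 5.30, 5.24, 5.31 and 5.33 in 4c and 5.12, 5.33, 5.30, 5.27 and 5.43 in 8c. It was higher in 8c than in 2c in all 5 experiments, by 0.19 (SE 0.06, adjusted p = 0.170, limma), and the groups overlapped. Cox6a1, the liver form of subunit 6a, ran from 5.57 to 5.93 in 2c and from 5.81 to 6.06 in 8c, again higher in 8c in 5 of 5, by 0.16 (adjusted p = 0.228, limma). Cox8a and Cox7a2, the general forms of subunits 8 and 7a, differed by 0.14 and 0.15, each with 8c above 2c in 4 of 5. Cox5b differed by 0.18 (adjusted p = 0.293) and Cox5a, another general subunit, by 0.01, with an interval from -0.17 to 0.19. Ndufa4, which is named after complex I but belongs to complex IV, differed by 0.08.

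The forms known from other tissues behaved less evenly. Cox6a2 and Cox8c, the muscle form of subunit 6a and the testis form of subunit 8, and Cox7b2, a testis form, were above background on 0 of 15 arrays by every probe. Cox8b, the muscle form of subunit 8, was dim but above background on all arrays, at -3.98, -1.88, -5.58, -5.53 and -4.40 in 2c, at -4.90, -3.92, -4.16, -5.55 and -6.29 in 4c and at -5.33, -4.34, -5.52, -6.35 and -5.38 in 8c. Its 8c minus 2c estimate was -1.11 (SE 0.44, adjusted p = 0.263, limma), and it was -0.51 without the arrays with acinar transcripts and -0.77 without experiment 2, whose 2c array was the highest. Of 6 muscle markers 3 were at background on every array, and their summed signal ran from -2.81 to -2.09 in 2c and from -3.08 to -1.80 in 8c. Cox6b2, the testis form of subunit 6b, had 2.01, 2.45, 2.49, 1.60 and 2.06 in 2c, 1.96, 2.25, 3.09, 1.49 and 1.31 in 4c and 1.64, 2.56, 1.74, 0.92 and 1.43 in 8c. Its estimate was -0.46 (SE 0.21, adjusted p = 0.334, limma) and shrank to -0.01 within slide 1, while it was -0.66 within slide 2.

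ATP synthase has a soluble F1 part, which makes the ATP, a ring of c subunits in the membrane, a stalk and further membrane subunits. Median 8c minus 2c differences were 0.05 over the 5 F1 genes, 0.11 over the 3 c subunit genes, 0.07 over the 4 stalk genes and 0.16 over the 3 other membrane genes. Atp5f1a, the alpha subunit, had 5.97, 5.65, 5.85, 6.00 and 5.99 in 2c, 5.85, 5.86, 5.70, 6.00 and 6.00 in 4c and 5.85, 5.77, 5.99, 6.09 and 6.04 in 8c, with an interval from -0.11 to 0.21. Atp5f1b, the catalytic beta subunit, had 2.98, 2.14, 2.67, 2.68 and 2.65 in 2c, 2.53, 2.30, 1.74, 2.51 and 2.94 in 4c and 2.56, 2.12, 2.47, 2.38 and 2.71 in 8c. Its estimate was -0.18 with a wide interval, from -0.53 to 0.18, and the 4c array of experiment 3 was the lowest of the 15. The 3 genes that encode the same mature c subunit, Atp5mc1, Atp5mc2 and Atp5mc3, differed by 0.11, 0.07 and 0.11 between 8c and 2c, each with 8c above 2c in 4 of 5.

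**Figure D4:**
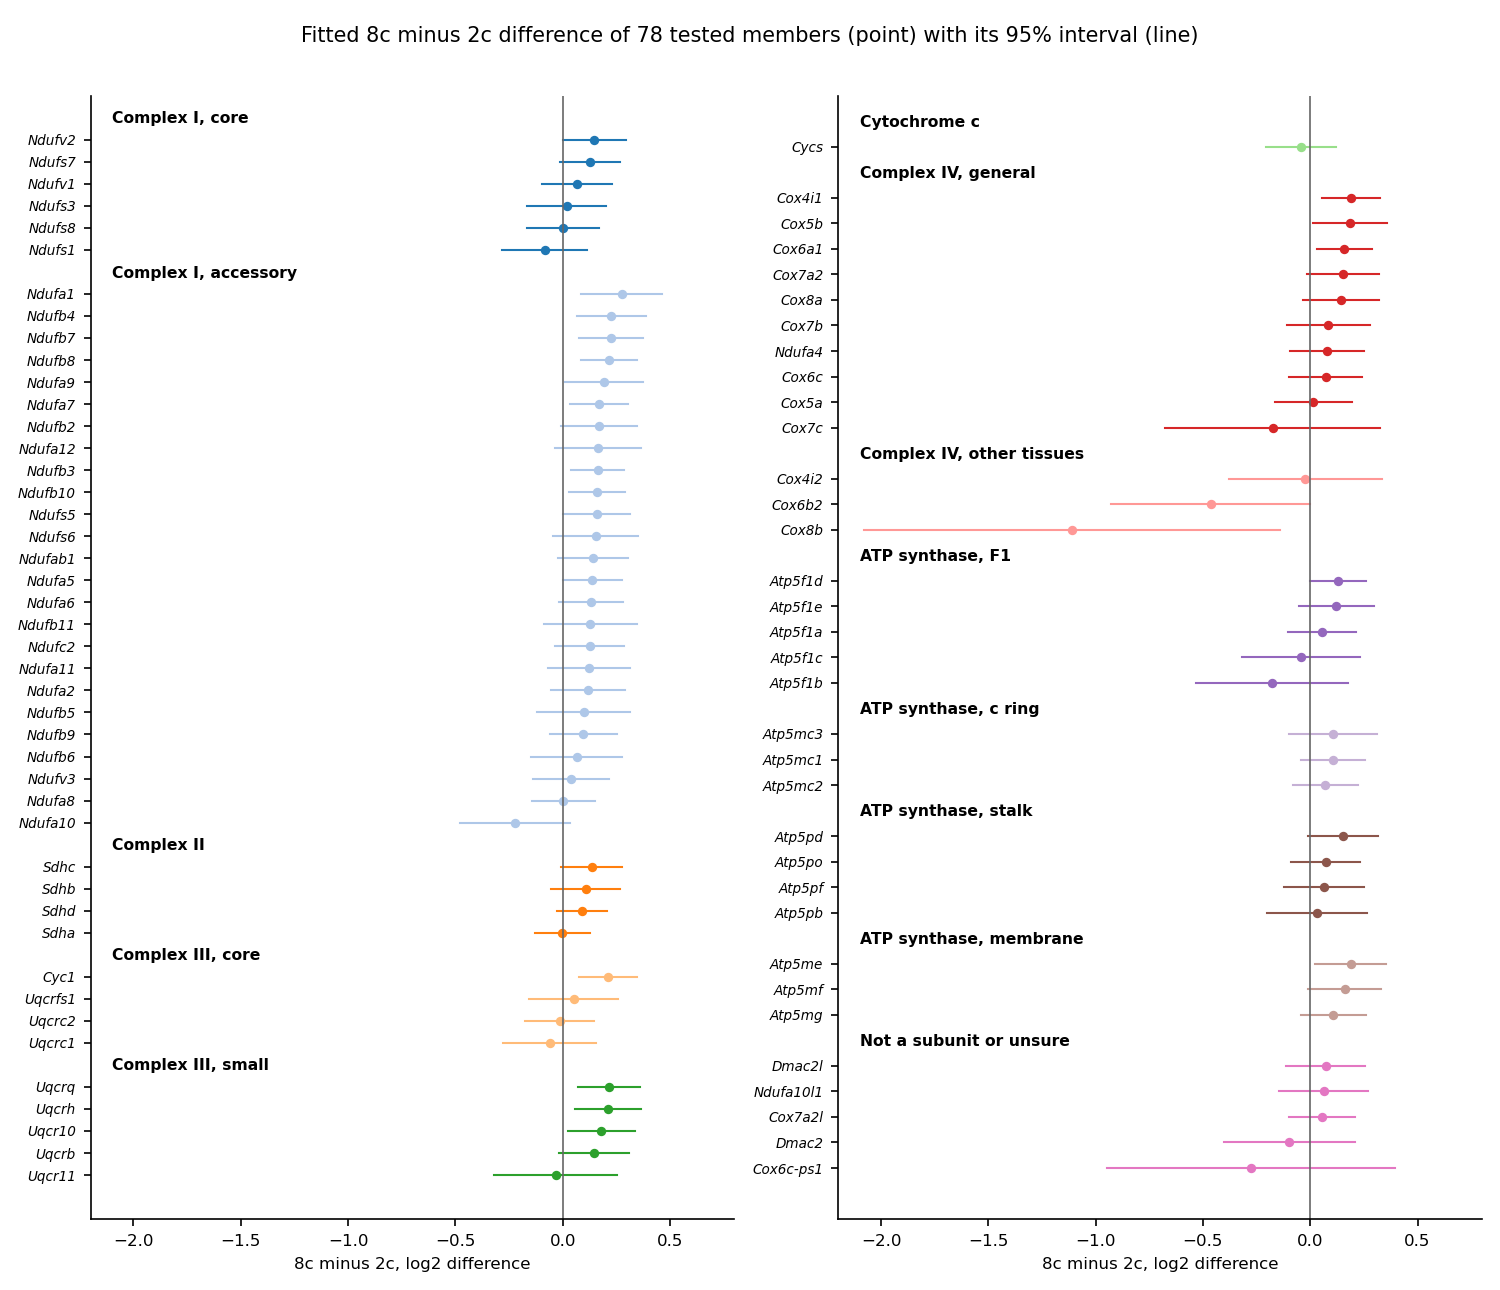
Fitted 8c minus 2c difference (log2, horizontal axis) of 78 of the 79 members, with points for the estimates and lines for the 95% intervals, grouped by complex and role. Most points lie between 0 and 0.27, and the widest lines belong to Cox8b (-1.11), Cox6c-ps1 (-0.28) and Cox7c (-0.18).

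Between 4c and 2c, none of the 79 genes passed, while 1.27% of all features did (0.264% higher and 1.01% lower in 4c), and the smallest adjusted p was 0.113 (limma, Ndufb3). The median difference was 0.01, with 42 of 79 above 0, against -0.03 over all features and 43.0% above 0. Its sign changed between experiments: the medians were 0.03, 0.08, -0.12, 0.10 and 0.01 in experiments 1 to 5. Without experiment 3 the median was 0.05, without experiments 2 or 4 it was -0.01 or -0.02, and over the alternatives tried it ran from -0.02 to 0.07. At an unadjusted p under 0.05, 6 genes were higher in 4c, where 5.80% of features were, and none was lower, where 10.1% were. In 10 genes 4c was higher in all 5 experiments, against 5.27% of features, while 8.61% of features were lower in all 5. Ndufb3, an accessory subunit of the membrane arm of complex I, had 3.53, 3.74, 3.68, 3.69 and 3.87 in 2c, 3.80, 4.00, 3.89, 3.89 and 4.00 in 4c and 3.74, 3.86, 3.82, 3.95 and 3.96 in 8c. The 4c levels were above the 2c level of the same experiment by 0.21 on average (SE 0.06) in 5 of 5 experiments. A second Ndufb3 probe, far dimmer, gave -0.004 for 8c minus 2c where the first gave 0.16. Ndufs6 and Ndufb10, accessory subunits of complex I, followed Sdhc and Ndufb7 with 0.22 and 0.14 (adjusted p = 0.270 and 0.292, limma), each higher in 4c in 5 of 5.

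Between 8c and 4c, none of the 79 genes passed, while 0.651% of all features did (0.639% higher and 0.0117% lower in 8c), and the smallest adjusted p was 0.493 (limma, Atp5f1e). The median difference was 0.08, with 62 of 79 above 0, against 0.004 over all features and 51.0% above 0, and it was above 0 in every experiment, from 0.04 to 0.20. The largest of these medians came from experiment 3, whose 4c and 8c arrays lay on different slides, and without that experiment it was 0.06. At an unadjusted p under 0.05, 7 genes were higher in 8c, where 4.55% of features were, and none was lower, where 3.21% were. In 25 genes 8c was higher in all 5 experiments, against 8.82% of features, while 4.71% of features were lower in all 5. All 15 ATP synthase subunit genes had estimates above 0, from 0.04 to 0.23, while 3 of the 4 complex II genes had estimates below 0. Not all of these signs held across the experiments. Atp5f1b was lower in 8c than in 4c in experiments 2, 4 and 5, and Atp5f1c in experiments 2 and 5. In experiment 3, with its arrays on different slides, Atp5f1b had 1.74 in 4c and 2.47 in 8c, and Atp5f1c 1.83 and 2.52. Atp5f1e, the epsilon subunit of F1, had 4.81, 5.26, 4.87, 5.00 and 5.07 in 4c and 4.88, 5.43, 5.15, 5.41 and 5.29 in 8c, higher in 8c in all 5, by 0.23 (SE 0.08). In 2c it had 4.89, 5.29, 5.16, 4.95 and 5.26, which overlapped both other groups. Atp5mc2 and Cox5b came next in ATP synthase and complex IV, with 0.17 and 0.19 (adjusted p = 0.607 and 0.620, limma), higher in 8c in 5 of 5. The comparisons with 2c and with 4c share their 8c arrays, so these values are not independent of those above.

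The mean of the 5 arrays was highest in 8c for 55 of the 79 genes, in 4c for 11 and in 2c for 13. Over all features the shares were 29.5%, 28.5% and 42.0%.

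Levels of some members also differed between experiments. In an F test over the 5 experiments (limma, Benjamini-Hochberg over all features) 21 of the 79 genes passed, or 26.6%. Over all features the share was larger, at 37.3%. Without the 6 arrays with acinar transcripts 3 of the 79 passed, or 3.80%, and 2.90% of all features. Among the 21 the mean of the 3 arrays was lowest in experiment 1 for 14 genes, and highest in experiment 2 for 11 and in experiment 5 for 8. Atp5mc2, for example, had 4.66, 4.55 and 4.74 in the 2c, 4c and 8c arrays of experiment 1, against 5.10, 5.00 and 5.23 in those of experiment 2 (adjusted p = 0.00489, limma). The typical range between the experiment means was 0.30 over the 79 genes and 0.57 over all features. Age, slide and isolation cannot be told apart in this test. In the 2 experiments with rats of 12 and 14 weeks against the 3 with rats of 5 or 6 weeks, none of the 79 genes and none of the 17055 features passed. At an unadjusted p under 0.05, 4 genes were higher in the older animals, where 6.82% of features were, and these were Cox4i2, Cox7c, Cox8b and Cox6c-ps1, while 6.41% of features were lower. All arrays of the older animals lay on slide 1, and the levels of Cox4i2, Cox7c and Cox6c-ps1 split by slide, also within experiment 3, as described below. The part of the slide in their age difference was not tested. For a dependence of the 8c minus 2c difference on age, none of the 79 genes and none of all features passed. At an unadjusted p under 0.05 the count was 0 of the 79, where 2.25% of features had a slope above 0 and 2.56% one below 0. With 5 experiments, this test cannot show that the difference is free of age.

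In 3 of the 79 members the levels stepped down from slide 1 to slide 2 without overlap. This share was close to that of all tested features, 3.87%, so such a step was not particular to the members. Cox7c, a small general subunit of complex IV, had 0.28, 0.36, 0.34, -1.31 and -1.18 in 2c, 0.22, 0.46, 0.03, -1.22 and -1.35 in 4c and 0.37, 0.43, -1.12, -0.99 and -1.07 in 8c. All 8 arrays of slide 1 were above all 7 of slide 2, and in experiment 3 the step fell between the 4c and the 8c array. Cox6c-ps1, named as a pseudogene of Cox6c, had -0.63, -0.41, -0.42, -2.15 and -2.14 in 2c, -0.63, -0.11, -0.20, -2.21 and -2.73 in 4c and -0.59, -0.32, -2.12, -1.91 and -2.21 in 8c, with the same split. Cox4i2, the lung form of subunit 4, had -0.51, -0.25, -0.22, -1.41 and -1.25 in 2c, -0.22, 0.14, -0.18, -1.30 and -1.23 in 4c and -0.22, -0.09, -1.10, -1.15 and -1.19 in 8c, again split by slide. These 3 were the only members with all slide 1 levels above all slide 2 levels, which held for 3.87% of all features, and 4 (Atp5f1a, Atp5f1d, Ndufs8 and Ndufv1) had all slide 1 levels below, where 1.30% did.

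A second tested Cox7c probe, dimmer and above background on 10 of the 15 arrays, showed no such step, with means of -5.96 on slide 1 and -5.71 on slide 2. Of the other Cox6c-ps1 probes, 1 was above background on 1 array and 1 on 2 arrays. No p is given for the step, since these genes were noticed for it and only experiment 3 spans both slides, with 1 array on slide 2. The sign of the 8c minus 2c estimate of these genes changed when experiment 3 was left out. For Cox7c it was -0.18 in all arrays and 0.15 without experiment 3, for Cox6c-ps1 -0.28 and 0.08, and for Cox4i2 -0.02 and 0.19. The Cox7c probe has 23.3% G and C, the lowest of the 115 member probes. The Cox6c-ps1 and Cox4i2 probes, which split alike, have 45% and 50%, and the Sdhc probe, which did not split, has 25%. The part of base composition in the step was not tested.

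Cox6c-ps1 and Cox6c probes read much the same sequence, which is why both are printed, 5′ to 3′, with the bases that are identical in the best ungapped alignment in capitals.
Cox6c: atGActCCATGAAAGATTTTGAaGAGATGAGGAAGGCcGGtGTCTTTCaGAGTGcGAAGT
Cox6c-ps1: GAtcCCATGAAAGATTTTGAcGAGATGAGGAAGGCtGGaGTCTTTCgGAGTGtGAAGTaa
Of 58 overlapping bases 51 are identical, and the longest shared run is 16 bases, and cross-hybridisation between the pair was not tested. The Cox6c probe did not split by slide: its levels were 4.73, 4.91, 4.82, 4.70 and 5.02 in 2c, 4.66, 5.01, 4.74, 4.80 and 4.81 in 4c and 4.74, 5.03, 4.74, 5.06 and 4.96 in 8c. Its 8c minus 2c difference was 0.07. A second, dimmer Cox6c probe had means of 3.16 on slide 1 and 2.87 on slide 2, and the ranges of the slides overlapped. In experiment 3 it had 3.25 in 2c and 3.06 in 4c, on slide 1, and 2.72 in 8c, on slide 2. This second probe gave -0.04 for 8c minus 2c.

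**Figure D5:**
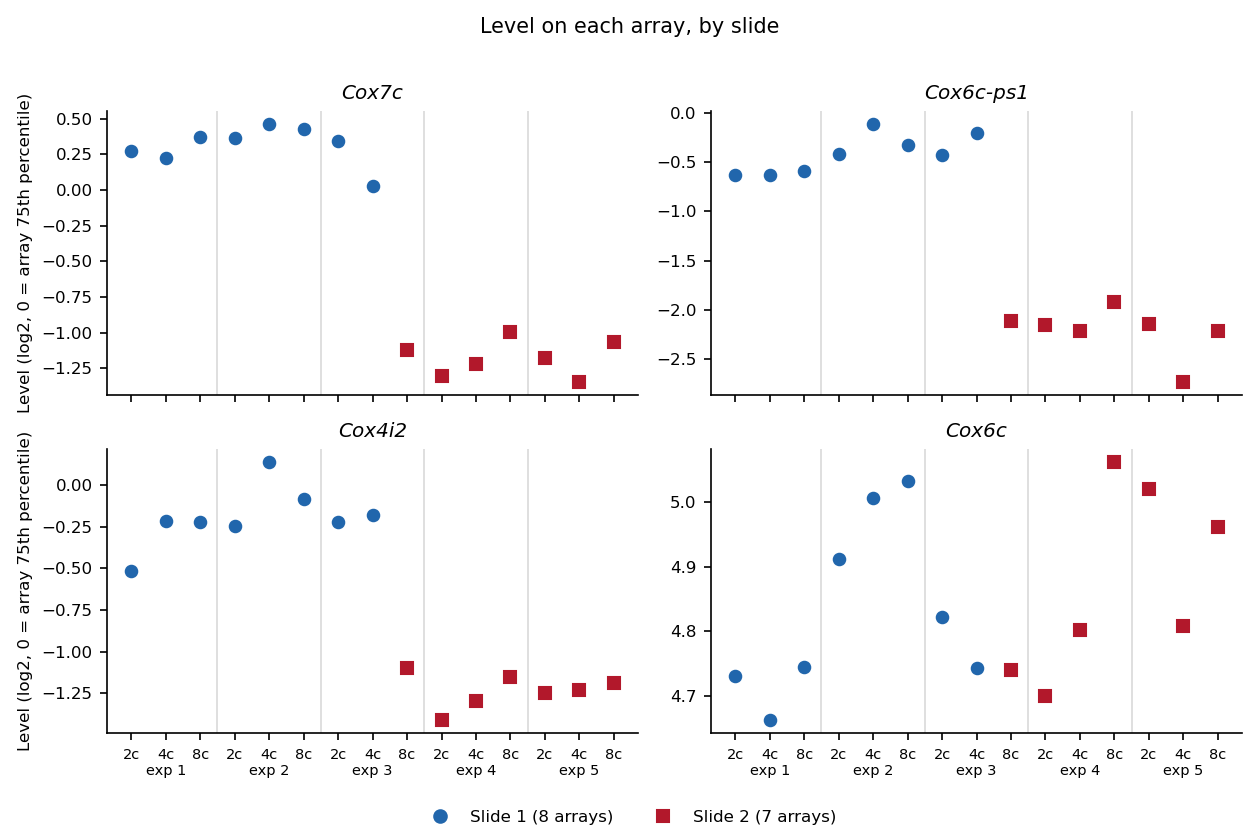
Levels of Cox7c, Cox6c-ps1, Cox4i2 and Cox6c (log2, vertical axes; 0 is the array's 75th percentile) on the 15 arrays in the order of the experiments, with blue circles for slide 1 and red squares for slide 2. In the first 3 genes every slide 1 array is above every slide 2 array, also within experiment 3. Cox6c, drawn from the brighter of its 2 probes, lies between 4.66 and 5.06 on both slides.

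Probes of the same gene mostly gave like values. Of the 22 genes with at least 2 tested probes, the sign of the 8c minus 2c estimate differed between probes in 7, and the typical gap between the highest and the lowest estimate was 0.05. The largest gap was 0.50, in Uqcrq. The 6 genes that were not tested were Cox6a2, Cox7b2, Cox8c, Ndufa4l2, Ndufc1 and Ndufs4. No probe of theirs was above background on more than 2 of the 15 arrays, so only a bound is known for them. Several names caught by the rule are not subunits or are unsure: Dmac2 and Dmac2l (called Atp5sl and Atp5s in the files), Cox7a2l, Ndufa10l1 and the pseudogene. Without these 5 and the 3 forms of other tissues, the other 71 genes had a median 8c minus 2c difference of 0.12, with 61 above 0. The list is not complete either. Cox6b1, the general form of subunit 6b, Ndufa13 and Atp5mk have probes under other gene names, so the rule missed them.

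Genes that build or serve the chain were examined in lists chosen with earlier results of these data known. Of the assembly factors, which help the complexes form, 40 of 50 listed were tested and none passed in any comparison, with a median 8c minus 2c difference of 0.02. Cox17, a copper chaperone for complex IV, differed by 0.21 between 8c and 2c (adjusted p = 0.280, limma). Of 70 tested proteins of the mitochondrial ribosome, which translates the mitochondrial messages, none passed, and the median was 0.06 with 52 above 0. None passed among 21 genes of the citric acid cycle and pyruvate dehydrogenase (median -0.04), 12 of coenzyme Q synthesis (0.04), 12 of other electron entry routes (0.01), 13 carriers, porins and coupling proteins (0.03) and 10 mitochondrial antioxidants (-0.01), in any of the 3 comparisons. Etfb, a subunit of the electron transfer flavoprotein, differed by 0.23 between 8c and 2c (adjusted p = 0.154, limma), and Slc25a15, the mitochondrial ornithine carrier of the urea cycle, by 0.20 (adjusted p = 0.117). Suclg1 of the citric acid cycle differed by 0.03, Coq9 of coenzyme Q synthesis by 0.08 and Gpx1, a glutathione peroxidase, by 0.12.

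Of 23 coactivators and mitochondrial DNA factors, 1 passed in 1 comparison, as lower in 4c than in 2c, where 1.01% of all features were. Tfb1m, a methyltransferase of the mitochondrial ribosomal RNA, had -4.14, -4.44, -4.30, -3.85 and -4.19 in 2c, -4.87, -4.86, -4.45, -4.39 and -4.53 in 4c and -4.71, -4.62, -4.30, -4.11 and -4.24 in 8c. It fell by 0.44 from 2c to 4c (SE 0.09, adjusted p = 0.0471, limma), in 5 of 5 experiments, and the 8c levels overlapped both groups. The median of the 23 was -0.02 for 8c minus 2c and -0.06 for 4c minus 2c.

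Among genes known for their place in the liver lobule, 4 of 18 tested periportal genes passed as higher in 8c than in 2c, where 0.809% of all features did, with a median of 0.18. Of 16 tested pericentral genes 9 passed as lower in 8c, where 1.56% of all features did, with a median of -0.86. The part of this difference in the values of the respiratory chain genes was not tested.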

How the data were processed

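Total RNA of 15 sorted hepatocyte samples was hybridised to 1-colour Agilent arrays. Per the file headers, the authors' scanner output was made with Agilent Feature Extraction 11.5.1.1 (the submitters' processing notes name 10.7.3.1), and the deposited intensity values are background-corrected processed signals, 1 per spot. The deposited value table holds intensity values too and served as an alternative.

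Control spots were left out and spots of a probe averaged. The log2 intensity minus the array's 75th percentile, computed from the 16211 probes detected on every array, was used. Features above background on at least 5 arrays were kept, with the brightest probe per gene, which left 17055. They were fitted in R 4.3.3 with limma 3.58.1 (DNA content and experiment, eBayes, two-sided), adjusted by Benjamini-Hochberg over all features. Experiment numbers pair the arrays because, per the series' design text, isolation and sort were done in separate experiments. The deviations of same-numbered arrays correlated at 0.04 to 0.79 over 15 pairs, and 13 of 15 were highest with their own number. The exceptions were the 8c array of experiment 3 with its 2c array (0.04) and with its 4c array (0.10), which lay on the other slide. Samples are labelled as independent experiments, but animals per experiment are not given. With the experiment as a block, p-values between DNA contents rest on how the differences vary from experiment to experiment. The number of arrays limits the precision.

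On simulated data for 8c against 2c over 17055 features, 44% of 50 features changed by 0.5 (log2) were recovered, 70% of those changed by 1 and 96% of those changed by 2. The changed features were drawn at random from all tested features, whose median level was -2.72, against 3.05 for the tested members. These rates therefore do not describe the members, for which recovery was not simulated. Changes near 0.2 are smaller than any size simulated.

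Members and lists were chosen with earlier results of these data known. Genes named are those among the 6 smallest p values of each comparison, paired isoforms, catalytic subunits, the 4 smallest p values of the age and experiment tests, and, of each other list, passing genes or the brightest. Roles were assigned after values were seen. Alternatives covered scaling, background correction, filters, probes, block, slide and arrays left out. Old gene names were updated through RefSeq for 24 of the 115 probes. Probe positions are in rn4, as in the files. The values of 1 member are not reported here, although it is in the counts and medians.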

Additional observations from a re-analysis of the deposited data

Results flagged for a closer look

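In 9 of 120 groups of 5 arrays, 1 array lay far from the other 4 (Dixon's ratio above 0.71), where chance flags about 1 in 20. In experiment 1 the 8c array was the lowest in Atp5mc1 (4.88, next 5.28), Atp5mc2 (4.74, next 5.14), Cox5b (4.71, next 5.15) and Cox6a1 (5.81, next 6.01), and the 4c array was the lowest in Cox4i1 (5.01, next 5.24) and Cox6a1 (5.79, next 5.92). In experiment 3 the 4c array was the lowest in Atp5mc3 (0.81, next 1.22) and Ndufs6 (2.65, next 2.84). In experiment 2 the 8c array was the highest in Ndufa1 (3.69, next 3.48).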

How the results depend on the processing

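No respiratory chain or ATP synthase gene passed between any 2 DNA contents under any of the 19 alternatives. With no replicate block the count stayed at 0 and the 3 medians were the same, at 0.11, 0.01 and 0.08 for 8c minus 2c, 4c minus 2c and 8c minus 4c. Leaving out 1 experiment at a time gave 0.07 to 0.12, -0.02 to 0.05 and 0.06 to 0.10. With the 75th percentile taken over all probes the 8c minus 2c median was 0.19. The number of genes that differed between experiments was 21, and it was 5 with no filter on dim probes and 3 without the 6 arrays with acinar transcripts, which leaves 9 arrays. All features that passed numbered 6364, and 494 without those arrays. The cause was not tested in either case. The age tests found 0 genes under each of their 14 alternatives. For 75 of the 79 genes the 8c minus 2c interval lies within 1.5-fold either way. The standard errors of the other 4 were 0.21 (Cox6b2), 0.23 (Cox7c), 0.30 (Cox6c-ps1) and 0.44 (Cox8b).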
